A study of Mus musculus with 11 samples.

Results

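Col1a1 GFP cells sorted from mouse spinal cord 10 days after the onset of symptoms of experimental autoimmune encephalomyelitis (EAE) were compared with cells sorted 5 days after onset. EAE is an immune attack on myelin used as a model of multiple sclerosis. The comparison used 6 of the 11 libraries in the series, 3 from day 10 (D10) and 3 from day 5 (D5), chosen by their labels. A further 3 libraries of cells sorted from healthy cords (sorted control) gave the level against which both days were set, and the 2 whole cord libraries were not analysed here. All 9 sorted libraries came from mice labelled C57BL/6 Col1a1GFP, so the reporter and the sort were shared by the 3 groups, and the labelled difference between them was EAE and its day. Cells of 2 to 3 cords went into each library, and such pools count as biological replicates in the series' own account. The sources used here do not give how EAE was induced, nor the age and sex of the mice. The comparison asks which changes seen at D5 receded, persisted or grew by D10.

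Fibroblasts of the central nervous system lie in the meninges and along larger vessels, where they make collagens, laminins and growth factors, and the Col1a1 promoter marks most of them. In EAE and after other injuries these cells multiply and form a fibrotic scar rich in type I collagen and fibronectin. Pericytes and smooth muscle cells, together called mural cells, share the same perivascular space and some collagen expression. Because each library is bulk RNA, fewer cells of a type and less RNA per cell cannot be told apart in any value below.

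Library totals were 8970221 to 10491064 counts at D10, 7123291 to 8485996 at D5 and 7943615 to 10300867 in the sorted control. Values are given as CPM, a gene's count relative to its library's total, after scaling by TMM factors that correct for library composition. Fibroblast genes had high values in every library. Because the Col1a1 promoter drives the reporter, the level of Col1a1 is no independent check of the sort. Col1a1, whose promoter drives the reporter, had 17772, 11379.5 and 29669 CPM at D10, 16373, 12414 and 18666 CPM at D5 and 5167, 7906 and 8219.7 CPM in the sorted control. The fibroblast proteoglycan gene Dcn had 3021, 4307 and 2913 CPM at D10, 3986, 2844 and 2687 CPM at D5 and 6954, 6881 and 5925 CPM in the sorted control. Dcn was called lower than control on both days (log2 fold change -0.95 ± 0.19 at D10 and -1.05 ± 0.19 at D5, edgeR adjusted p = 0.0073 and 0.0022). The fibroblast genes Lum and Pdgfra had means of 638.5 and 1137 CPM at D10, 470 and 849 CPM at D5 and 718 and 1226 CPM in the sorted control. Genes that define other cells were present too. Ptprc, a marker of leukocytes, had 24.9, 24.6 and 37.4 CPM at D10 against 50.5, 78.5 and 39.4 CPM at D5. Of the endothelial markers, Pecam1 had 3.79, 2.41 and 6.23 CPM at D10, 5.12, 5.64 and 7.24 CPM at D5 and 4.41, 0.103 and 5.55 CPM in the sorted control. It was not called against control on either day (edgeR adjusted p = 0.85 at D10 and 0.469 at D5). Cdh5, the cadherin of endothelial junctions, had 373, 422 and 385 CPM at D10, 488, 417 and 481 CPM at D5 and 209.6, 211 and 237 CPM in the sorted control. Cdh5 was called above control on both days (log2 fold change 0.84 ± 0.13 at D10 and 1.07 ± 0.13 at D5, edgeR adjusted p = 0.00172 and 0.000159). Snap25, a neuronal marker, had 0.223, 1.25 and 0.47 CPM at D10 against 0.358, 0 and 1.19 CPM at D5. The mural genes were abundant, with 306, 141 and 321 CPM at D10 against 854, 1368 and 701 CPM at D5 of Rgs5. D10 replicate 3 stood apart from the other D10 libraries. On the first principal component of log CPM, which held 48.8% of the variance, it lay at 53.8, against 12 and 3.38 for D10 replicates 1 and 2, while the D5 libraries lay between 51.9 and 59.2 and the controls between -81.6 and -78.0. D10 replicate 3 therefore lay among the D5 libraries on the axis that separated EAE from health. The main counts, and those of several gene lists, are given with and without this library.

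Cells from D10 differed from cells from D5 at 21 of 15972 genes tested (0.131%) by edgeR's quasi-likelihood test with Benjamini-Hochberg adjustment at an adjusted p under 0.05, the threshold for a called gene. Of these, 12 were higher at D10 (0.0751% of the genes tested) and 9 were lower (0.0563%). The genes higher at D10 were Col2a1, Vat1l, Ntm, Igf2, Lpl, Emid2, Edn3, Odz4, Apoe, Col4a5, Vtn and A430110N23Rik, and those lower were Car4, Serpina3g, Abcc9, Itga1, Kcnj8, Ndufa4l2, Fn1, Des and Cd248. In all 21 the 3 D10 libraries and the 3 D5 libraries did not overlap. Among all genes tested, 1035 (6.48%) had all D10 libraries above all D5 libraries and 1223 (7.66%) had them below, and 1353 genes had an unadjusted p under 0.05. The count of called genes rested on single libraries. With D10 replicate 3 left out it was 218 of 16735 genes tested (1.3%), with 137 higher (0.819%) and 81 lower (0.484%), and those 218 held all 21. It was 9 without sorted control replicate 4, 4 without D5 replicate 1, 14 without D5 replicate 2, 1 without D5 replicate 3, 3 without D10 replicate 1 and 6 without D10 replicate 2. DESeq2 on the same counts called 182 genes (1.14%), 107 higher (0.67%) and 75 lower (0.47%), and all 21 were among them. Lpl was called under each of the 15 alternatives tried, and the other 20 genes under 5 to 14 of them.

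**Figure D1:**
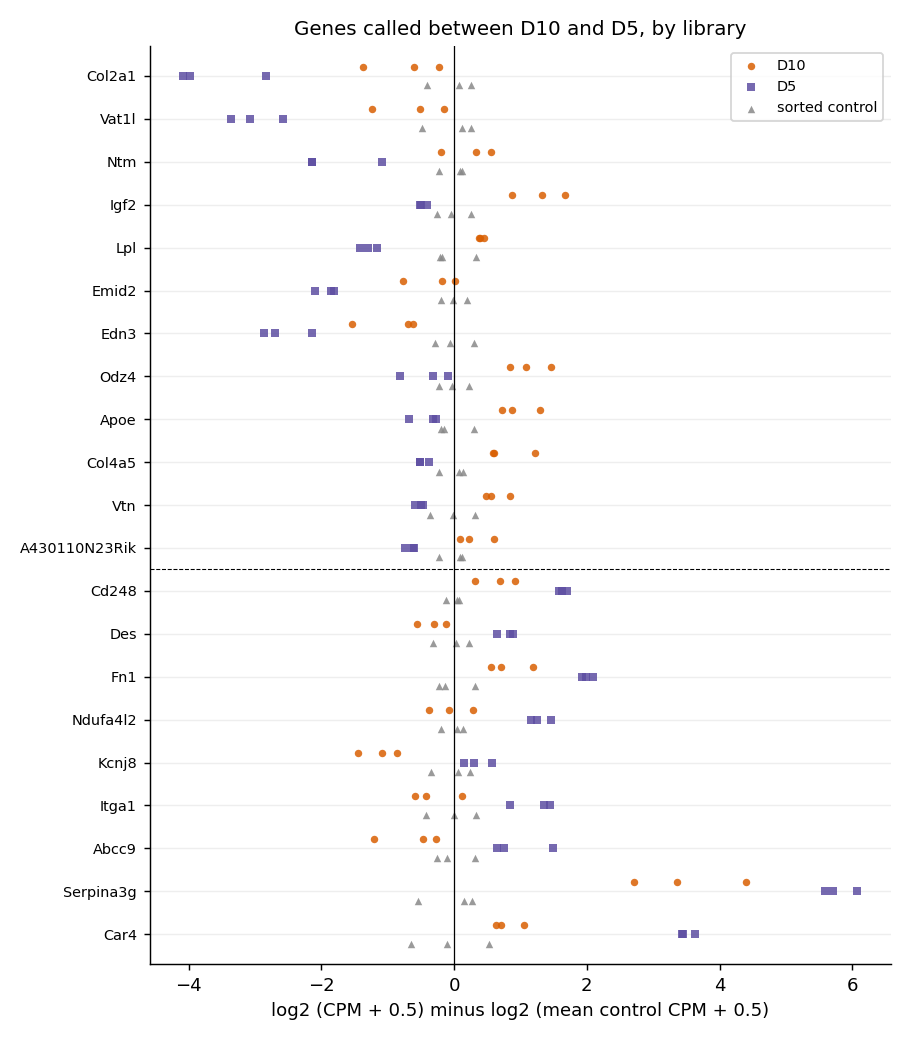
Each of the 21 called genes by library, as log2 of CPM plus 0.5 minus the same value of the mean of the sorted control. Circles are D10, squares D5 and triangles sorted control libraries (3 each), and the dashed line separates the 12 genes higher at D10 from the 9 lower. In every row the D10 and D5 points do not overlap, and for Igf2, Apoe, Col4a5, Vtn and Lpl the D10 points lie to the right of all controls and the D5 points to the left of them.

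Of the 3817 genes called against health at D5, 1865 were called again at D10 without a call between the days, 16 moved back by a called difference and 0 moved further away. At D5, 2115 genes were higher than in the sorted control (13.2% of the genes tested) and 1702 were lower (10.7%), while at D10 1339 were higher (8.38%) and 797 lower (4.99%). The comparisons share the control libraries, and D10 against D5 shares the D5 libraries with D5 against control, so the classes that follow describe these libraries and carry no test of their own. Among the genes called at D5, 16 receded, that is, they were also called between D10 and D5 in the direction of the control level. Of the 16, 8 had been higher than control at D5 and 8 lower. By D10, 11 of the 16 were no longer called against the control, 4 were still called in the direction of D5 (Edn3, Fn1, Cd248 and Serpina3g) and 1, Vtn, was called on the other side of it. To recede by this rule is not always to stop at the control level. The D10 estimate had crossed it for Vtn, Lpl, Abcc9, Ntm, A430110N23Rik, Des, Ndufa4l2 and Itga1. For Vtn, Lpl and Abcc9 all D10 libraries lay beyond all controls. Another 1865 genes persisted, being called against the control on both days and not between the days, 1198 of them higher and 667 lower. A gene that persisted by this rule may still have changed between the days. Trac, 4.31-fold lower at D10 without overlap, and Cbs, 4.69-fold higher without overlap, were among them. The remaining 1936 were unresolved, called at D5 but neither called against the control at D10 nor called between the days. No gene grew, that is, moved further from the control by a called difference. With DESeq2 4 genes grew and with limma voom 0, and in edgeR 25 genes called at D5 moved further away at an unadjusted p under 0.05, against 880 that moved back. A further 5 genes (Igf2, Apoe, Col4a5, Odz4 and Kcnj8) were called only late, since they did not differ from control by a called amount at D5 and did so at D10. In the 8 libraries without D10 replicate 3, 200 genes receded, 0 grew, 887 persisted, 2903 were unresolved and 18 were late. Without D5 replicate 3, 1 receded, 1044 were unresolved and 0 were late. The genes that receded numbered 2 without D10 replicate 1, 4 without D10 replicate 2, 3 without D5 replicate 1, 12 without D5 replicate 2 and 5 without sorted control replicate 4.

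The size of the remaining change was read from the log2 differences. For genes called higher at D5, the D10 difference from control was in the median 77.2% of the D5 difference, with quartiles of 63.5% and 90.1%. For genes called lower at D5 it was 65.4%, with quartiles of 48.1% and 81.7%. Under 50% of the change was left for 217 of the 2115 higher genes (10.3%) and for 462 of the 1702 lower genes (27.1%). The D10 difference was the larger for 276 of the higher and 190 of the lower genes, and the D10 level had crossed the control mean for 13 and 28. These genes were chosen on the D5 libraries. When genes were chosen instead for a called difference at D10, the D5 difference was in the median 113.8% of the D10 difference for the 1339 higher genes and 115.5% for the 797 lower genes, and it was the smaller for 409 (30.6%) and 306 (38.4%) of them. By either choice the D5 difference from health was the larger in the median. All of these shares include D10 replicate 3, which lay among the D5 libraries on the axis that separated EAE from health. The shares without that library were not tested. Leaving it out moved the persisting genes from 1865 to 887 and the receded genes from 16 to 200, so the amount left at D10 may depend on it.

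**Figure D2:**
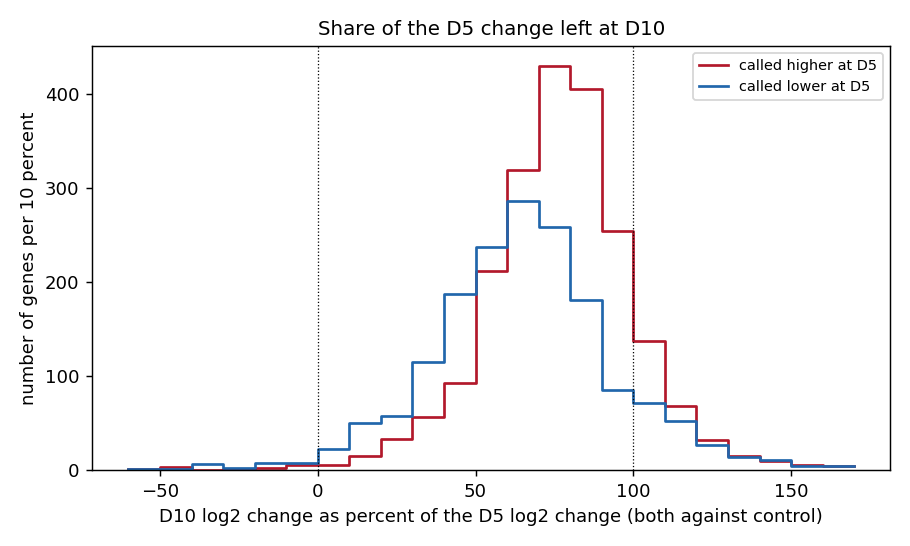
Number of genes, in bins of 10 percent, by the share of the D5 log2 change from sorted control that was left at D10, for the 2115 genes called higher at D5 (red) and the 1702 called lower (blue). Dotted lines mark the control level (0) and the D5 level (100), and 4 higher and 5 lower genes lie outside the axis. The medians are 77.2% for the higher and 65.4% for the lower genes. All D10 libraries are used, including D10 replicate 3.

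The lipoprotein genes Lpl and Apoe rose at D10. Lpl, the lipase that frees fatty acids from lipoproteins, had 143, 141 and 148 CPM at D10, 48.1, 40.1 and 44.1 CPM at D5 and 94.2, 136 and 95.3 CPM in the sorted control. The D10 libraries all lay above every control and the D5 libraries all below every control, and Lpl rose 3.26-fold between the days (log2 fold change 1.71 ± 0.16 SE, edgeR adjusted p = 0.00256). Apoe, which encodes the lipid carrier apolipoprotein E, had 3904, 2609 and 2904 CPM at D10, 1316, 1265 and 992 CPM at D5 and 1382, 1428 and 1944 CPM in the sorted control. Its D10 values again exceeded every control, its D5 values were all below them, and it rose 2.64-fold (log2 fold change 1.4 ± 0.19 SE, edgeR adjusted p = 0.017). At D5 Apoe did not differ from control by a called amount (log2 fold change -0.41 ± 0.19, edgeR adjusted p = 0.137), whereas at D10 it was higher (0.99 ± 0.19, edgeR adjusted p = 0.0057). In the list of fatty acid and lipoprotein genes, 2 of 38 tested members were called, both higher (0.0751% of all genes), 7 were higher without overlap (6.48% of all genes) and 1 lower (7.66%), and the median log2 difference was 0.25, against 0.01 over all genes. The lipoprotein receptor gene Lrp1 had 4846, 4861 and 4472 CPM at D10 against 2836, 3111 and 2972 CPM at D5. Vldlr, another receptor of that family, had 31.8, 29.2 and 31.5 CPM at D10 against 19.2, 18.8 and 13.4 CPM at D5. Neither receptor overlapped between the days, and neither passed the test (edgeR adjusted p = 0.0677 for Lrp1 and 0.136 for Vldlr). Apod, which encodes a lipid-binding protein of the lipocalin family, had 14245, 24389.5 and 8713 CPM at D10, 9917, 9883 and 4543 CPM at D5 and 26382, 28367 and 25648 CPM in the sorted control. Its days overlapped, the lowest D10 value was that of replicate 3, and all 6 EAE libraries lay below the 3 controls. When D10 replicate 3 was left out, 4 members of the list were called higher (0.819% of all genes) and 17 were higher without overlap (17.3%). Macrophages also make Apoe and Lpl, and their 19 markers summed to 241 to 542 CPM at D10, 169 to 299 CPM at D5 and 103 to 119 CPM in the sorted control, with 6 higher at D10 without overlap and 1, Trem2, at 0 in all controls. The part of macrophage RNA in the rise of Apoe and Lpl was not tested.

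Every cholesterol gene called against control was lower, at D5 and at D10. Of 24 tested cholesterol genes, 15 were called lower than control at D5 (10.7% of all genes) and 9 at D10 (4.99%), and 0 were called between the days by edgeR, DESeq2 or limma voom, with 4 higher at an unadjusted p under 0.05. Between the days 2 were higher without overlap (6.48% of all genes) and 0 lower (7.66%). With D10 replicate 3 left out, 8 were higher without overlap (17.3%) and 1 was called higher (0.819%). The median log2 difference from control was -1.01 at D10 and -1.32 at D5. Sc5d, which acts late in cholesterol synthesis, had 9.702, 15.1 and 5.52 CPM at D10, 4.53, 4.43 and 5.001 CPM at D5 and 23.1, 34.7 and 19.4 CPM in the sorted control. All 3 D10 values of Sc5d lay above the D5 values and below the controls, without a call (edgeR adjusted p = 0.38).

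Igf2, insulin-like growth factor 2, a growth factor that leptomeningeal cells release in quantity, rose at D10. It had 4548, 2593 and 3542 CPM at D10, 1000.1, 997 and 1075 CPM at D5 and 1192, 1375 and 1697 CPM in the sorted control. Every D10 library lay above every control and every D5 library below, and Igf2 rose 3.48-fold (log2 fold change 1.80 ± 0.20 SE, edgeR adjusted p = 0.00654). Against the control it did not differ by a called amount at D5 (log2 fold change -0.47 ± 0.19, edgeR adjusted p = 0.098) and was higher at D10 (1.32 ± 0.20, edgeR adjusted p = 0.00156). Of its binding proteins, Igfbp2 had 240.1, 272 and 183 CPM at D10, 86.1, 105 and 61.1 CPM at D5 and 164, 221 and 345 CPM in the sorted control. The D10 values of Igfbp2 did not overlap with D5 and lay within the control range, at a difference that did not pass the test (edgeR adjusted p = 0.0701). Igfbp5, another binding protein, had 3356, 2629 and 5339.5 CPM at D10, 2328, 2599 and 2114 CPM at D5 and 1428, 1012 and 1306 CPM in the sorted control. Its values were above control on both days and higher without overlap at D10, and the difference between the days did not pass the test (edgeR adjusted p = 0.411). The receptor Igf2r, which clears the factor, had 112, 112 and 132 CPM at D10 against 146, 155 and 157 CPM at D5, again without overlap and without a call (edgeR adjusted p = 0.468).

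Edn3, endothelin 3, a secreted ligand of endothelin receptors, had 124, 131 and 68.6 CPM at D10, 30.5, 45.4 and 27.2 CPM at D5 and 164, 193 and 246 CPM in the sorted control. D10 values lay above all D5 values and below all controls, and Edn3 rose 3.14-fold between the days (log2 fold change 1.65 ± 0.26 SE, edgeR adjusted p = 0.0332). At D10 it was still called lower than control (log2 fold change -0.90 ± 0.25, edgeR adjusted p = 0.0343). Among 35 tested genes of meningeal fibroblast identity, 1 was called, Igf2 (0.0751% of all genes called higher), 6 were higher without overlap (6.48%) and 2 lower (7.66%), and the median log2 difference was 0.20. Tbx18, a transcription factor of meningeal and mural cells, had 130.3, 116 and 97.9 CPM at D10, 74.8, 66.1 and 68.7 CPM at D5 and 154, 146 and 154 CPM in the sorted control. Its D10 values exceeded all D5 values and lay below all controls, with no call between the days (edgeR adjusted p = 0.0869). Bmp7, a bone morphogenetic protein made by the meninges, had 222, 280.2 and 179.6 CPM at D10 against 169, 137 and 133 CPM at D5. Cxcl12, a chemokine of meningeal and stromal cells, had 773, 539 and 731 CPM at D10, 524, 346 and 293 CPM at D5 and 334, 368 and 429.9 CPM in the sorted control. For both, each D10 value exceeded each D5 value and the difference did not pass the test (edgeR adjusted p = 0.251 for Bmp7 and 0.218 for Cxcl12). The meningeal members called higher without D10 replicate 3 numbered 6 (against 0.819% of all genes), Igf2, Igfbp2, Tbx18, Bmp6, Bmp7 and 9930013L23Rik.

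Among the 21 called genes the largest rise was that of Col2a1, the type II collagen of cartilage. It had 45.05, 76.8 and 100.2 CPM at D10, 15.97, 6.45 and 6.98 CPM at D5 and 88.2, 123 and 140.1 CPM in the sorted control. Col2a1 was 7.495-fold higher at D10 than at D5 (log2 fold change 2.91 ± 0.36 SE, edgeR adjusted p = 0.0159), and only the highest D10 value, in replicate 3, reached into the control range. With Col2a1, 7 of 22 tested members of the cartilage and bone matrix list were called lower than control at D5 (10.7% of all genes), and 4 members without Col2a1 were at D10 (4.99%). The median log2 difference of this list between the days was 0.67, with 3 members higher without overlap (Col2a1, Comp and Col9a3, against 6.48% of all genes) and 1 lower (7.66%). Comp, a cartilage matrix protein, had 8.03, 8.66 and 16.3 CPM at D10, 5.24, 6.98 and 1.45 CPM at D5 and 24.5, 12.6 and 19.7 CPM in the sorted control. The member that was lower was Prg4, the joint lubricant lubricin, which had 10.5, 22.7 and 42.9 CPM at D10, 242, 97.3 and 185 CPM at D5 and 33.3, 10.3 and 15.6 CPM in the sorted control and missed the threshold (edgeR adjusted p = 0.0677). With D10 replicate 3 left out, 8 members were higher without overlap (17.3% of all genes) and 2 lower (18.1%). The median log2 difference of the list was then 0.42.

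Further genes of the cell surface and matrix rose at D10, and Emid2, Ntm, Vat1l, A430110N23Rik and Vtn did so from a level called lower than control at D5. Emid2, which encodes a collagen chain also called Col26a1, had 38.1, 43.98 and 25.3 CPM at D10, 12.04, 9.802 and 11.7 CPM at D5 and 49.7, 42.9 and 37.9 CPM in the sorted control, and rose (log2 fold change 1.68 ± 0.22 SE, edgeR adjusted p = 0.017). Ntm, neurotrimin, a surface adhesion protein of the immunoglobulin superfamily, had 101, 86.4 and 60.05 CPM at D10, 15.1, 31.96 and 15.3 CPM at D5 and 58.5, 74.99 and 72.8 CPM in the sorted control, and rose (log2 fold change 1.99 ± 0.28 SE, edgeR adjusted p = 0.0195). D10 and control values of both genes overlapped, and every D5 value lay below both groups. Vat1l had 23.9, 30.9 and 14.3 CPM at D10, 5.36, 3.62 and 2.896 CPM at D5 and 37.5, 41.3 and 24.6 CPM in the sorted control, and rose 5.78-fold (log2 fold change 2.53 ± 0.34 SE, edgeR adjusted p = 0.017). A430110N23Rik, now named Ssc5d, a secreted scavenger receptor protein, had 201, 155 and 140 CPM at D10, 79.02, 87.1 and 85.8 CPM at D5 and 113, 141 and 143 CPM in the sorted control, and rose (log2 fold change 0.98 ± 0.16 SE, edgeR adjusted p = 0.0362). The D10 and control values of Vat1l overlapped, as did those of A430110N23Rik. Odz4, now named Tenm4, is a teneurin, a large transmembrane adhesion protein, and had 84.4, 64.95 and 54.5 CPM at D10, 17.04, 28.5 and 24.1 CPM at D5 and 25.8, 35.3 and 29.7 CPM in the sorted control. Here D10 stood alone above overlapping D5 and control values (log2 fold change 1.55 ± 0.22 SE, edgeR adjusted p = 0.0195), and against the control it was higher only at D10 by a called difference (log2 fold change 1.17 ± 0.22, edgeR adjusted p = 0.00485). Vtn, vitronectin, a plasma and matrix adhesion protein, had 1871, 1449 and 1527 CPM at D10, 739.9, 750.2 and 696 CPM at D5 and 812, 1026 and 1290.1 CPM in the sorted control. D10 values were above every control and D5 values below every control, and Vtn rose 2.22-fold (log2 fold change 1.15 ± 0.17 SE, edgeR adjusted p = 0.0239).

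In the list of basement membrane genes Col4a5 rose at D10 and 10 others were higher without overlap and without a call. Col4a5, a chain of the type IV collagen network, had 819, 527 and 531 CPM at D10, 244, 269 and 244 CPM at D5 and 298, 369.6 and 382 CPM in the sorted control. D10 values exceeded all controls, D5 values were below all controls, and Col4a5 rose 2.48-fold (log2 fold change 1.31 ± 0.18 SE, edgeR adjusted p = 0.017). It was the only called gene among 21 tested basement membrane genes (0.0751% of all genes), of which 11 were higher without overlap (6.48% of all genes) and 0 lower, with a median log2 difference of 0.53. Those higher without overlap and without a call were the laminin genes Lama1, Lama2, Lama4, Lamb1, Lamc1 and Lamc3, the nidogens Nid1 and Nid2, the proteoglycan Hspg2 and the collagen Col4a6. Lama2, the laminin chain whose loss causes a muscular dystrophy, had 1676, 1761 and 1154 CPM at D10, 841, 1002 and 774 CPM at D5 and 2873, 3134 and 2713 CPM in the sorted control. Its D10 values lay above D5 and below control, at log2 fold change 0.81 ± 0.17 SE, edgeR adjusted p = 0.129. Lamc3, a laminin gamma chain, had 357, 351 and 292 CPM at D10, 173, 201 and 174 CPM at D5 and 545, 757 and 664 CPM in the sorted control, and also lay between the other groups (edgeR adjusted p = 0.0613). Nid1, which links laminin to type IV collagen, had 4092, 2669 and 3449.5 CPM at D10, 1867, 1986 and 2121 CPM at D5 and 2271, 2985 and 2536 CPM in the sorted control, and its D10 values overlapped with control (edgeR adjusted p = 0.136). By contrast the abundant chain Col4a1 had 6839, 2949 and 7646 CPM at D10, 3905, 3738 and 5254 CPM at D5 and 1302, 2010.4 and 1705 CPM in the sorted control. All 6 EAE values of Col4a1 exceeded the controls and the days overlapped. DESeq2 called 9 members higher (0.67% of all genes), Col4a5, Col4a6, Hspg2, Lama2, Lamb1, Lamc1, Lamc3, Nid1 and Nid2, and limma voom called 2. EdgeR called 5 higher (0.819% of all genes) without D10 replicate 3. Of 15 tested non-fibrillar collagens outside this list, 7 were higher without overlap (6.48% of all genes) and 1, Col14a1, was lower (7.66%). Col15a1, a collagen of the basement membrane zone, had 3228, 3032 and 3199 CPM at D10, 1431, 1518 and 2217 CPM at D5 and 3274, 4122 and 3729 CPM in the sorted control, with D10 above D5 (edgeR adjusted p = 0.0994).

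**Figure D3:**
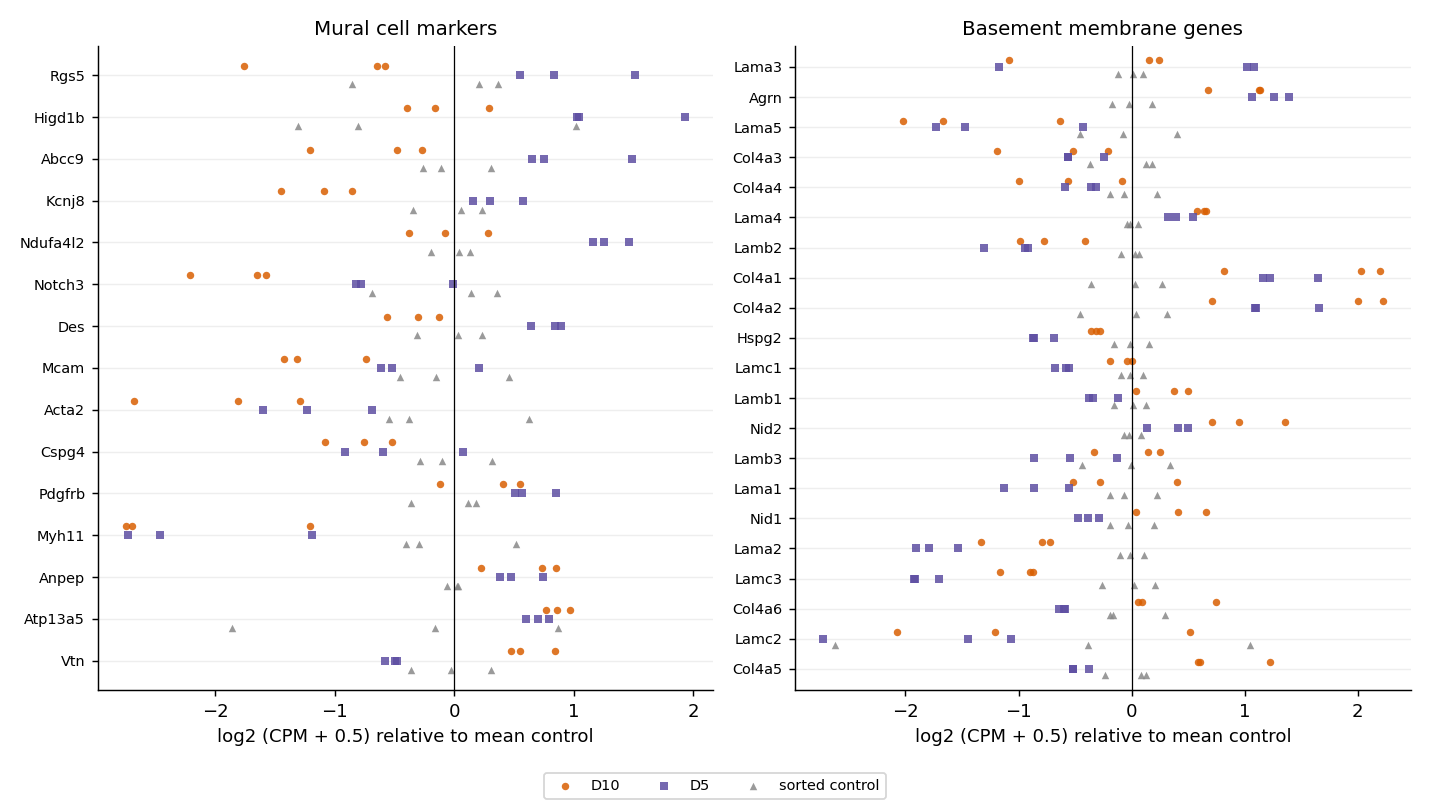
Mural cell markers (left) and basement membrane genes (right) by library, as log2 of CPM plus 0.5 relative to the mean of the sorted control, with circles for D10, squares for D5 and triangles for sorted control libraries (3 each). Rows run from the lowest to the highest log2 difference between D10 and D5. On the left 8 of 15 genes have all D10 points left of all D5 points and 1, Vtn, has them right, and on the right 11 of 21 genes have all D10 points right of all D5 points.

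No fibrillar collagen gene passed the test between the days, and many stood above the healthy level on both. Of 33 tested genes of fibrillar collagens and their processing, 0 were called by edgeR, DESeq2 or limma voom (5 higher and 4 lower at an unadjusted p under 0.05), 4 were higher without overlap (6.48% of all genes) and 3 lower (7.66%), and the median log2 difference was -0.01. Against the control 17 were called higher at D5 (13.2% of all genes) and 15 at D10 (8.38%). Col1a1 was above control on both days, and between the days its log2 difference was 0.31 ± 0.30 (SE). D10 replicate 3 held the highest Col1a1 value of the 9 libraries and D10 replicate 2 the lowest of the 6 EAE libraries. Col3a1, the partner of type I collagen in loose tissue, had 11757, 6613 and 16480.4 CPM at D10, 11922, 9328 and 13952 CPM at D5 and 3712, 5880.3 and 4502 CPM in the sorted control, at a log2 difference between the days of -0.01 ± 0.28 (SE). Bmp1, the protease that trims procollagen, had 271, 151 and 355 CPM at D10, 376, 362 and 489.5 CPM at D5 and 72.3, 69.8 and 107 CPM in the sorted control. Its D10 values lay below all D5 values and above all controls, and the difference did not pass the test (edgeR adjusted p = 0.516). When D10 replicate 3 was left out, 11 members were lower without overlap (18.1% of all genes) and 4 higher (17.3%), and 1 was called lower (0.484%). The log2 difference of Col1a1 was then -0.11.

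Fibronectin fell between the days and stayed above the healthy level. Fn1, the adhesive glycoprotein of provisional wound matrix, had 1161, 1292 and 1804 CPM at D10, 3025, 3151 and 3363 CPM at D5 and 982, 719.5 and 674 CPM in the sorted control. D10 values lay between the other groups without touching either, and Fn1 fell 2.24-fold between the days (log2 fold change -1.16 ± 0.19 SE, edgeR adjusted p = 0.0361). It remained higher than control at D10 (log2 fold change 0.84 ± 0.19, edgeR adjusted p = 0.012). Itga1, the alpha chain of a collagen-binding integrin, had 107, 96.03 and 157 CPM at D10, 261, 372 and 394 CPM at D5 and 108, 182 and 144 CPM in the sorted control. The D10 and control values overlapped below all D5 values, and Itga1 fell (log2 fold change -1.51 ± 0.24 SE, edgeR adjusted p = 0.0314). Cd248, endosialin, a surface glycoprotein of activated fibroblasts and pericytes, had 228, 175 and 264 CPM at D10, 422, 433 and 458 CPM at D5 and 148, 129 and 144 CPM in the sorted control. Its D10 values lay between the other groups, and it fell (log2 fold change -0.98 ± 0.15 SE, edgeR adjusted p = 0.0329). In the list of wound matricellular proteins 1 of 24 tested members was called, Fn1 (0.0563% of all genes), 5 were lower without overlap (7.66%) and 1 higher (6.48%). Thbs2, a matricellular thrombospondin, had 747, 541 and 899 CPM at D10, 1066, 916 and 1373 CPM at D5 and 383, 364 and 421 CPM in the sorted control, without a call (edgeR adjusted p = 0.366). Postn, periostin, another matricellular protein, had 360.3, 135 and 354 CPM at D10, 192, 194 and 228 CPM at D5 and 36.01, 31.6 and 50.3 CPM in the sorted control, and its days overlapped. Among matrix proteases, Mmp10 had 0, 0.481 and 4.46 CPM at D10 against 27.3, 27.1 and 47.4 CPM at D5 and 0 CPM in all 3 sorted control libraries. Mmp9, gelatinase B, had 3.23, 10.3 and 15.04 CPM at D10, 34.9, 26.2 and 45.1 CPM at D5 and 3.31, 2.17 and 5.84 CPM in the sorted control. Both proteases were lower at D10 without overlap, and neither difference passed the test (edgeR adjusted p = 0.125 for Mmp10 and 0.189 for Mmp9).

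The pericyte genes Abcc9, Kcnj8, Des and Ndufa4l2 fell at D10. Abcc9 and Kcnj8 encode the regulatory and pore subunits of the potassium channel of pericytes that is closed by ATP. Abcc9 had 56.9, 34.1 and 65.8 CPM at D10, 133, 222 and 124 CPM at D5 and 66.1, 73.2 and 98.5 CPM in the sorted control, and fell 3.07-fold (log2 fold change -1.62 ± 0.27 SE, edgeR adjusted p = 0.0443). Kcnj8 had 15.9, 10.4 and 13.5 CPM at D10, 36.1, 43.8 and 32.6 CPM at D5 and 22.9, 34.5 and 30.4 CPM in the sorted control, and fell 2.83-fold (log2 fold change -1.50 ± 0.22 SE, edgeR adjusted p = 0.0233). D10 values of both genes lay below every control, and D5 values of Abcc9 above every control. Kcnj8 was lower than control at D10 (log2 fold change -1.14 ± 0.22, edgeR adjusted p = 0.00549) and not by a called amount at D5. Des, desmin, the intermediate filament of muscle and pericytes, had 64.1, 53.7 and 72.4 CPM at D10, 124, 147 and 143 CPM at D5 and 63.7, 93.1 and 81.1 CPM in the sorted control, and fell (log2 fold change -1.12 ± 0.17 SE, edgeR adjusted p = 0.0239). Ndufa4l2, a pericyte-enriched gene, had 13.9, 8.66 and 10.8 CPM at D10, 26.1, 32.4 and 27.9 CPM at D5 and 11.8, 9.91 and 12.5 CPM in the sorted control, and fell (log2 fold change -1.37 ± 0.23 SE, edgeR adjusted p = 0.0385). For both, D10 overlapped with control and D5 was above every control. Rgs5, a regulator of G protein signalling that marks pericytes, had 306, 141 and 321 CPM at D10, 854, 1368 and 701 CPM at D5 and 265, 618 and 554 CPM in the sorted control. Its D10 values were all below the D5 values, at a difference that missed the threshold (log2 fold change -1.93 ± 0.36 SE, edgeR adjusted p = 0.0812).

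Over the list of 15 mural markers, all tested, 4 were called lower (0.0563% of all genes) and 1 higher (0.0751%). Without overlap 8 were lower (7.66% of all genes) and 1 higher (6.48%). The median log2 difference was -0.87, against 0.01 over all genes. The 8 lower without overlap were Rgs5, Higd1b, Abcc9, Kcnj8, Ndufa4l2, Notch3, Des and Mcam, and the higher was Vtn. No mural marker was at 0 in any library. Of the smooth muscle genes in this list, Myh11 and Acta2 overlapped between the days. Myh11, the smooth muscle myosin, had 697, 240 and 249 CPM at D10, 244, 705 and 293 CPM at D5 and 1218, 2306 and 1312 CPM in the sorted control. Acta2, smooth muscle actin, had 330, 125 and 229.6 CPM at D10, 265, 501 and 344 CPM at D5 and 550.5, 1247 and 619.8 CPM in the sorted control. All 6 EAE values of both genes lay below the controls. In the separate list of contractile and myofibroblast genes 1 of 22 tested members was called, Des, lower at D10 (0.0563% of all genes). In that list 5 were lower without overlap (Des, Cald1, Itgb1, Tpm1 and Vcl, against 7.66% of all genes) and 0 higher (6.48%), and 18 of 22 estimates were lower. The list of mural markers summed to 3133 to 4879 CPM at D10, 4032 to 5789 CPM at D5 and 4270.4 to 7334 CPM in the sorted control. This sum holds Vtn, which rose, at means of 1615.5 CPM at D10, 728.7 CPM at D5 and 1042.7 CPM in the sorted control. Endothelial markers summed to 808 to 856 CPM at D10, 831 to 1042 CPM at D5 and 628 to 661 CPM in the sorted control. Cdh5, the most abundant of them and a large part of the sum, had means of 393.4 CPM at D10, 461.8 CPM at D5 and 219.1 CPM in the sorted control. Of 19 tested, 4 were called higher than control and 1 lower at D5 (13.2% and 10.7% of all genes). At D10 3 were called higher than control and 2 lower (8.38% and 4.99%). Between the days 0 of the 19 were called by edgeR (3 at an unadjusted p under 0.05), 2 by DESeq2, both lower (0.47% of all genes), and 0 by limma voom. Without D10 replicate 3 edgeR called 1 of the endothelial markers lower (0.484% of all genes). The share of mural cells in each sort was not measured, and its part in the fall of these genes was not tested. With D10 replicate 3 left out, 5 mural markers were called lower (0.484% of all genes) and 1 higher (0.819%), and 9 were lower without overlap (18.1%).

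Among the 21 called genes the largest fall was that of Car4, a carbonic anhydrase anchored to the cell surface. Car4 had 1.896, 2.02 and 2.703 CPM at D10, 18.6, 16.1 and 16.3 CPM at D5 and 1.72, 0.9296 and 0.479 CPM in the sorted control. D5 values stood far above the other groups, and Car4 fell 7.68-fold (log2 fold change -2.94 ± 0.40 SE, edgeR adjusted p = 0.017). At D10 it was above every control without a called difference (log2 fold change 1.10 ± 0.44, edgeR adjusted p = 0.122). The sums over 3 libraries were 61 counts at D10, 400 at D5 and 28 in the sorted control. Among 39 tested barrier and solute transporter genes, to which Car4, Abcc9 and Kcnj8 were assigned, 6 were lower without overlap (7.66% of all genes) and 1 higher (6.48%). The other lower ones were Slco2a1, Slc5a5 and Slc26a2, and the higher was Slc6a13, a carrier of the transmitter GABA at the meningeal barrier, with 253, 216 and 119 CPM at D10, 117, 114 and 94.4 CPM at D5 and 241, 303 and 306 CPM in the sorted control (edgeR adjusted p = 0.243). Against control 15 of the 39 were called lower at D5 (10.7% of all genes) and 12 at D10 (4.99%). When D10 replicate 3 was left out, 14 members were higher without overlap (17.3% of all genes) and 10 lower (18.1%). The transporter gene Abca8a had 255, 436 and 119 CPM at D10, 104, 160.3 and 55.4 CPM at D5 and 1068, 1305 and 1080.3 CPM in the sorted control. Slc13a4, a sulfate carrier, had 74.05, 108 and 48.8 CPM at D10, 75.5, 37.3 and 33.4 CPM at D5 and 229, 309.8 and 262 CPM in the sorted control. Both were below control in all 6 EAE libraries and overlapped between the days.

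Among interferon gamma response genes, 1 of 33 tested members was called, lower at D10 (0.0563% of all genes), and 12 were lower without overlap and 0 higher (7.66% and 6.48% of all genes). Serpina3g, an intracellular inhibitor of serine and cysteine proteases, had 14.2, 22.4 and 46.5 CPM at D10, 106, 116 and 149 CPM at D5 and 1.96, 1.03 and 2.202 CPM in the sorted control. D10 values lay between D5 and control without overlap, and Serpina3g fell 4.48-fold (log2 fold change -2.16 ± 0.35 SE, edgeR adjusted p = 0.0332), while it remained higher than control (log2 fold change 3.99 ± 0.44, edgeR adjusted p = 0.000303). The gene belongs to a cluster of near-identical serpins, so reads could be split among copies and its value is uncertain. Cxcl9, a chemokine induced by interferon gamma, had 12.9, 70.6 and 115 CPM at D10, 103, 157 and 146 CPM at D5 and 4.65, 2.38 and 6.89 CPM in the sorted control. Its values overlapped between the days, with D10 replicate 1 the lowest EAE library and D10 replicate 3 the highest of the 3 D10 libraries, and the difference did not pass the test (edgeR adjusted p = 0.638). The member median against control was 0.44, 1.34 and 1.72 on the log2 scale in D10 replicates 1, 2 and 3, against 2.00, 2.15 and 2.08 in the D5 replicates. Of the 33, 28 were called higher than control at D5 (13.2% of all genes) and 21 at D10 (8.38%). With D10 replicate 3 left out, 6 members were called lower (Serpina3g, Iigp1, Irgm2, Gm4951 and Tgtp2 among them) and 27 were lower without overlap (0.484% and 18.1% of all genes). Several members are near-identical copies (Gbp, Tgtp and Irgm genes), and their single values are uncertain. T cells, a source of interferon gamma, had lower marker levels at D10 too, at 107 to 199 CPM at D10, 272 to 342 CPM at D5 and 28.6 to 46.5 CPM in the sorted control over 15 markers, and their part in the fall of Serpina3g was not tested.

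The promoter of Serpina3g is shown because the gene was the called member of the interferon list. It is given 5′ to 3′ on the plus strand from 250 bases before to 50 bases after the start, at chr12:104235897-104236196 of GRCm38.p6, from RefSeq.
Serpina3g: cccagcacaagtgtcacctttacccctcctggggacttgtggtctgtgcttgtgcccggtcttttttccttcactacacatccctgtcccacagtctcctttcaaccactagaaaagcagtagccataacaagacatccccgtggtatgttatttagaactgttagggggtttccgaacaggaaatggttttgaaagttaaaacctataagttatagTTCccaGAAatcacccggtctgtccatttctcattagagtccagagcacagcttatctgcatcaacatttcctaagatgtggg
Capitals mark the outer letters of the match to TTCNNNGAA, the gamma-activated site known from promoters of interferon gamma response genes, searched on both strands. The match starts at position -33 from the gene start. This motif occurred in promoters of 10 of the 23 list members found in the table (43.5%) and of 9.6% of its 27025 genes. Counted by promoter and not by gene, it occurred in 8.3% of its 32851 promoters.

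Of 22 tested genes of MHC class I presentation 15 were called above control at D5 (13.2% of all genes) and 14 at D10 (8.38%). Between the days 0 of them were called by edgeR, DESeq2 or limma voom, with 4 lower at an unadjusted p under 0.05. With all libraries 2 class I genes were lower without overlap (7.66% of all genes) and 1 higher (6.48%). With D10 replicate 3 left out, 12 class I genes were lower without overlap (18.1% of all genes) and 1 was called lower (0.484%). Of 12 tested genes of class II presentation 8 were called above control at D5 (13.2% of all genes) and 6 at D10 (8.38%). In all 9 libraries the class II count called between the days was 0 with all 3 tools, and 0 at an unadjusted p under 0.05. Class II genes whose days did not overlap numbered 0 higher (6.48% of all genes) and 0 lower (7.66%). Without D10 replicate 3, 4 class II genes were lower without overlap (18.1%) and 0 were called. Cd74, the invariant chain of class II, had 157, 127 and 225 CPM at D10, 246, 225 and 126 CPM at D5 and 11.3, 16.9 and 4.79 CPM in the sorted control, with all EAE values above all controls and overlap between the days. The complement genes C3 and C4b were far above control on both days. C3, the central complement component, had 828, 654 and 1108 CPM at D10, 1035, 1048 and 789 CPM at D5 and 80.3, 53.6 and 77.9 CPM in the sorted control. C4b, of the classical complement pathway, had 456, 555 and 503 CPM at D10, 356, 359 and 334 CPM at D5 and 119, 86.04 and 105 CPM in the sorted control. C3 overlapped between the days, and C4b was higher at D10 without overlap and without a call (edgeR adjusted p = 0.244).

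Genes of cell division had lower values at D10 and stood nearest to D5 in D10 replicate 3. In the list of G2/M and mitosis genes, 30 of 36 tested members were lower at D10 without overlap (7.66% of all genes) and 0 higher, and all 36 log2 differences were negative with a median of -1.23. By edgeR 0 of them were called and 24 were lower at an unadjusted p under 0.05. DESeq2 called 5 lower, Mki67, Cenpe, Cenpf, Tpx2 and Anln (0.47% of all genes), and limma voom 3. Against control the list was higher on both days, with 34 members called higher at D5 (13.2% of all genes) and 17 at D10 (8.38%), at median log2 differences of 1.72 at D10 and 2.98 at D5, which are the same with Ccnb1, at 0 in all controls, set to its bound. Mki67, the antigen Ki-67 of dividing cells, had 79.4, 83.3 and 162 CPM at D10, 239.8, 242 and 234 CPM at D5 and 47.03, 17.8 and 28.9 CPM in the sorted control. The D5 values were nearly equal, D10 replicates 1 and 2 lay well under them, and D10 replicate 3 came closest (log2 fold change -1.14 ± 0.31 SE, edgeR adjusted p = 0.259). Top2a, the topoisomerase that untangles replicated DNA, had 32.9, 14.2 and 63.2 CPM at D10, 63.8, 76 and 69.5 CPM at D5 and 14.2, 6.61 and 7.75 CPM in the sorted control, and D10 replicate 3 was just below the lowest D5 library. Cenpf, a kinetochore protein, had 22.1, 17.4 and 30.9 CPM at D10, 47.1, 60.3 and 56.99 CPM at D5 and 6.49, 7.13 and 4.12 CPM in the sorted control, with the 3 groups apart from each other (edgeR adjusted p = 0.0975). Summed over the list, the libraries held 241 to 539 CPM at D10, 796 to 884 CPM at D5 and 97.2 to 151 CPM in the sorted control. When D10 replicate 3 was left out, 34 members were lower without overlap (18.1% of all genes), and the median was -1.58. Then 7 were called lower (0.484% of all genes), Cenpf, Tpx2, Plk1, Mki67, Anln, Prc1 and Cenpe.

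The promoters of Mki67, Top2a and Cenpf are shown because these were the members with the most counts at D5 among those lower without overlap, a choice made after their values were seen. Each runs 5′ to 3′ on the minus strand from 250 bases before to 50 bases after the start, from RefSeq on GRCm38.p6, at chr7:135716330-135716629 for Mki67, chr11:99024140-99024439 for Top2a and chr1:189688037-189688336 for Cenpf.
Mki67: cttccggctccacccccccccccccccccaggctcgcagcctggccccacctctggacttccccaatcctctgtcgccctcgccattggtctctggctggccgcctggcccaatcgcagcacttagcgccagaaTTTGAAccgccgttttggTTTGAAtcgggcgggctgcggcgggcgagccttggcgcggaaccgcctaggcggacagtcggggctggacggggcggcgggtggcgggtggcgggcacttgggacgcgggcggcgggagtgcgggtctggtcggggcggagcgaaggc
Top2a: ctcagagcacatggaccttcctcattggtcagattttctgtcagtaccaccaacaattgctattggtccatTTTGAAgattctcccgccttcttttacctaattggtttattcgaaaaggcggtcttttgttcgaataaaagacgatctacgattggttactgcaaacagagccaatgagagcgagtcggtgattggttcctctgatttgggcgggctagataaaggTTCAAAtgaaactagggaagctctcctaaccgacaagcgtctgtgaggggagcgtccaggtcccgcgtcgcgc
Cenpf: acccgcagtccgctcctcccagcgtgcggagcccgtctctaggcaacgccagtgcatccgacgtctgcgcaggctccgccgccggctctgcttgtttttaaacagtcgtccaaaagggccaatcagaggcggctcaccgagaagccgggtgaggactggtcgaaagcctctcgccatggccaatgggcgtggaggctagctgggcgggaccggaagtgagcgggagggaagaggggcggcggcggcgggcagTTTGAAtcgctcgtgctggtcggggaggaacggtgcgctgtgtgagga
Capitals mark matches to TTTGAA, the letters of the cell cycle homology region known from promoters of late cell cycle genes, read on either strand (TTCAAA on the reverse). Mki67 holds matches at -116 and -98 from the start, Top2a at -179 and, on the reverse strand, at -23, and Cenpf at 3. Such a match occurred in 24 of the 31 list members found in the promoter table (77.4%) and in 20.2% of its 27025 genes. Counted by promoter and not by gene, it occurred in 17.9% of all 32851 promoters of the same length. A match describes letters only.

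**Figure D4:**
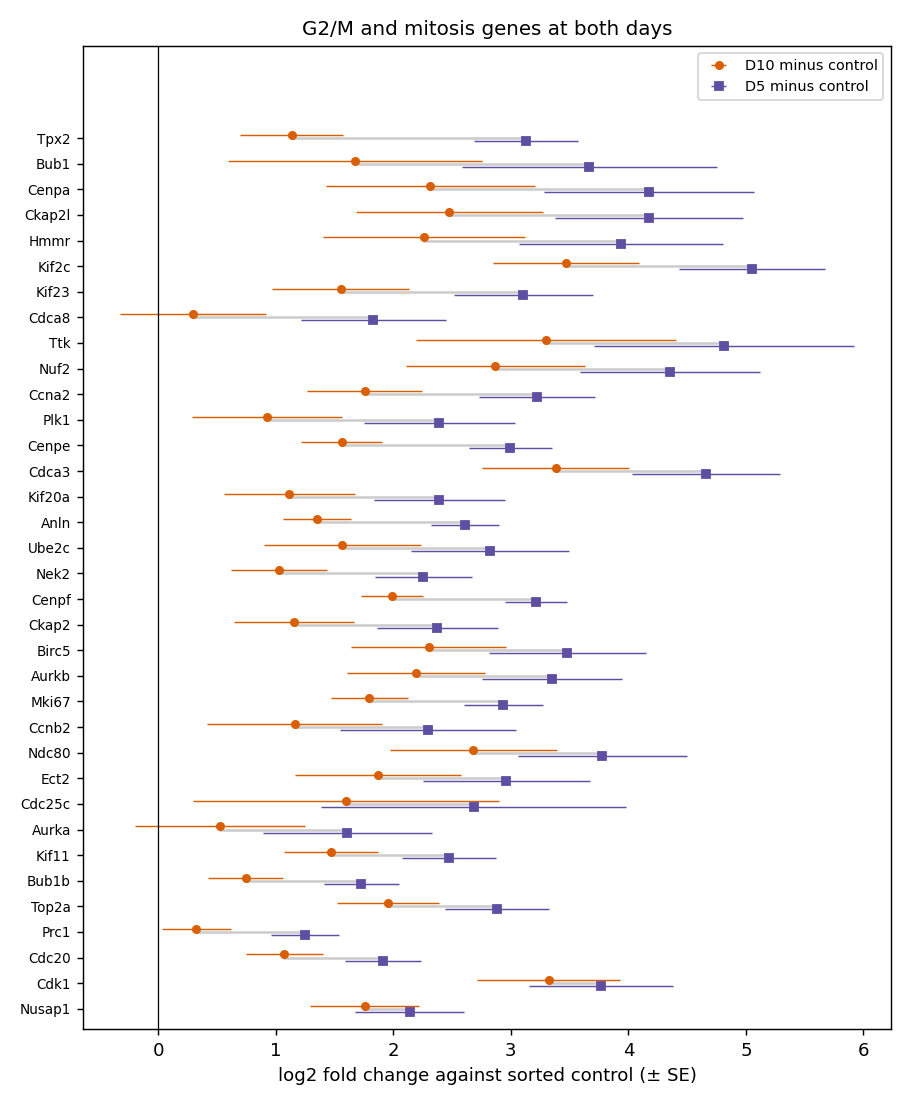
Log2 fold change against the sorted control at D10 (circles) and at D5 (squares), with the standard error as bars, for 35 of the 36 G2/M and mitosis genes (Ccnb1, at 0 in the controls, is left out). Grey lines join the days. In every row the D10 point lies left of the D5 point and right of the control level at 0.

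Among 37 tested genes of DNA replication and S phase 3 were lower without overlap (Mcm5, Mcm6 and Rrm1), near the 7.66% of all genes, and 0 were higher, and the median log2 difference was -0.30. By edgeR 0 were called (3 lower at an unadjusted p under 0.05), by DESeq2 1 and by limma voom 0. Mcm6, a subunit of the replicative helicase, had 31.2, 22.9 and 46.9 CPM at D10, 65.9, 53.6 and 67.1 CPM at D5 and 24, 24.2 and 19.9 CPM in the sorted control. D10 replicate 3 was again the D10 library nearest to D5. Pcna, the sliding clamp of DNA polymerases, had 34.7, 30.02 and 17.04 CPM at D10 against 24.1, 21.5 and 19.6 CPM at D5, with overlap between the days. With D10 replicate 3 left out, 17 members were lower without overlap (18.1% of all genes) and 1 higher (17.3%), and 2 were called lower (0.484%).

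Transcripts of immune cells were present in the sorted libraries on both days. Among T cell markers 12 of 15 tested were lower at D10 without overlap (7.66% of all genes) and 0 higher, with a median log2 difference of -1.33. By edgeR 0 were called (12 lower at an unadjusted p under 0.05) and by limma voom 0. DESeq2 called 3 lower, Il7r, Cd4 and Trac (0.47% of all genes). With D10 replicate 3 left out, 14 T cell markers were lower without overlap (18.1% of all genes) and edgeR called 1 lower (0.484%). Cd4, the coreceptor of helper T cells, had 10.6, 6.45 and 9.52 CPM at D10, 22.1, 40.95 and 18.8 CPM at D5 and 0.4899, 0.413 and 0.862 CPM in the sorted control. Cd3e, a chain of the T cell receptor complex, had 1.896, 2.02 and 4.35 CPM at D10, 7.51, 13.7 and 4.61 CPM at D5 and 0.245, 0 and 0 CPM in the sorted control. Values of both were lower in every D10 library than in every D5 library, and Cd3e was at 0 in 2 of the 3 controls. T cell markers summed to 107 to 199 CPM at D10, 272 to 342 CPM at D5 and 28.6 to 46.5 CPM in the sorted control, and 4 of them (Trac, Trbc2, Il7r and Icos) were at 0 in all controls. Pan-leukocyte markers were lower without overlap for 7 of 14 (7.66% of all genes) and higher for 0 (6.48%). By edgeR, DESeq2 and limma voom 0 were called, with 5 lower at an unadjusted p under 0.05. With D10 replicate 3 left out, 12 of the 14 were lower without overlap (18.1% of all genes) and 0 were called. Their sum was 181 to 287 CPM at D10, 268 to 495 CPM at D5 and 19.4 to 45.6 CPM in the sorted control.

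Macrophage and microglia markers had the opposite sign in the median, with 6 of 19 tested members higher at D10 without overlap (6.48% of all genes) and 0 lower, at a median log2 difference of 0.78. By edgeR 0 were called (7 higher at an unadjusted p under 0.05), by DESeq2 1 and by limma voom 0. The 6 were Csf1r, Cx3cr1, C1qa, C1qb, C1qc and Ms4a7. C1qc, a chain of the complement initiator C1q, had 26.99, 10.97 and 25.5 CPM at D10, 5.96, 4.97 and 4.21 CPM at D5 and 2.08, 2.58 and 0.192 CPM in the sorted control. Csf1r, the receptor that macrophages need to survive, had 29.9, 17.1 and 40.3 CPM at D10, 15.97, 16.6 and 14.6 CPM at D5 and 9.798, 6.51 and 9.57 CPM in the sorted control. The lowest of the D10 values was in replicate 2 for both. With D10 replicate 3 left out, 6 macrophage markers were higher without overlap (17.3% of all genes) and 0 were called. Their median log2 difference was then 0.59. Erythroid markers were higher without overlap for 5 of 7 (6.48% of all genes), at 18.5 to 58.8 CPM at D10, 4.43 to 12.8 CPM at D5 and 17.7 to 41.03 CPM in the sorted control in sum. By edgeR 0 of them were called. Their median log2 difference was 2.785, and 2.15 with D10 replicate 3 left out. Hba-a1, an alpha globin gene with the near-identical copy Hba-a2, had 5.799, 7.41 and 14.9 CPM at D10, 2.03, 0.403 and 0.132 CPM at D5 and 10.5, 4.44 and 3.73 CPM in the sorted control (edgeR adjusted p = 0.136). Igkc, the kappa light chain of plasma cells, had 763, 176 and 195 CPM at D10, 201, 144 and 115 CPM at D5 and 0, 0.516 and 0.192 CPM in the sorted control, with the single high value in D10 replicate 1. Astrocyte, neuronal and neutrophil marker lists had 0 members called by edgeR. At an unadjusted p under 0.05 these had 3, 1 and 0 members, DESeq2 called 1, 0 and 0, and limma voom 0 in each. With D10 replicate 3 left out, edgeR called 3 astrocyte markers higher (0.819% of all genes), 1 neuronal marker lower (0.484%) and 0 neutrophil markers.

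**Figure D5:**
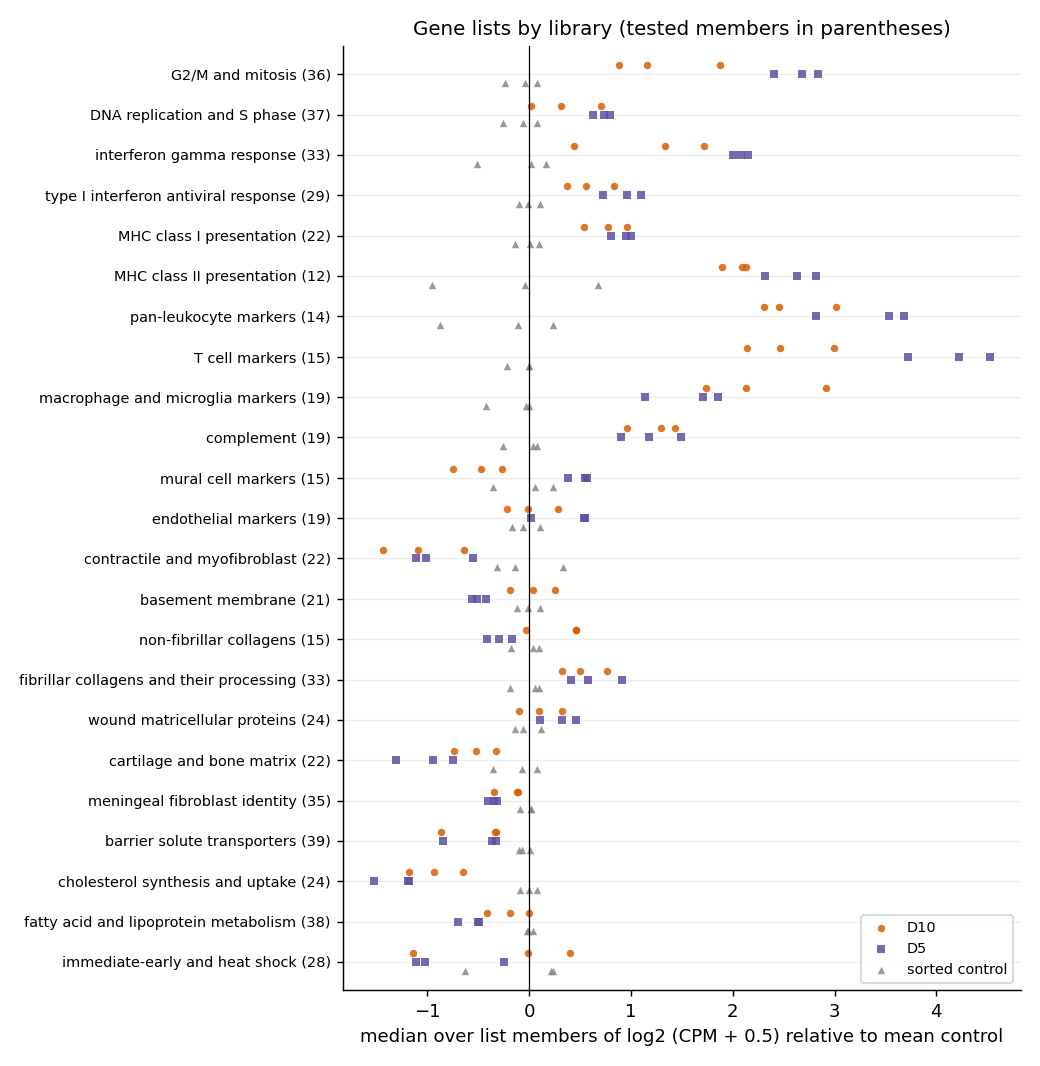
Median over the tested members of each gene list (number in parentheses) of log2 CPM plus 0.5 relative to the mean of the sorted control, for each D10 (circle), D5 (square) and sorted control (triangle) library. For G2/M, interferon gamma, T cell and mural genes all D10 points lie left of all D5 points, and for basement membrane and non-fibrillar collagen genes all D10 points lie right of them. In the G2/M, interferon gamma and pan-leukocyte rows the D10 point nearest to D5 is replicate 3.

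Immediate-early genes are known to respond to tissue dissociation. Of 28 tested immediate-early and heat shock genes 26 had a higher estimate at D10, with a median log2 difference of 0.62, and 1 was higher without overlap (6.48% of all genes). By edgeR, DESeq2 and limma voom 0 were called, with 5 higher at an unadjusted p under 0.05. Fos, a subunit of the AP-1 transcription factor, had 3337, 3358 and 1218 CPM at D10, 2209, 1101 and 1112 CPM at D5 and 3599, 2022 and 3737 CPM in the sorted control. D10 replicate 3 lay within the D5 range, and D10 replicates 1 and 2 within the control range. When D10 replicate 3 was left out, 18 of the 28 were higher without overlap (17.3% of all genes). The part of this difference in the results above was not tested.

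The genes that persisted with the largest D5 change were immune genes, all at 0 counts in the 3 controls, so that their fold is a lower bound set against 3 counts over the control group. Ighg1, an immunoglobulin heavy chain gene, had 76.6, 60.7 and 86.4 CPM at D10 against 53.6, 34.4 and 71.2 CPM at D5, at least 703-fold above control at D10 and at least 500.5-fold at D5. Ccl22, a chemokine of dendritic cells, had 1.67, 11.2 and 22.4 CPM at D10 against 18.8, 21.8 and 14.2 CPM at D5, at least 111-fold above control at D10 and at least 172-fold at D5. The values of both overlapped between the days, and D10 replicate 1 was far lower in Ccl22 than the other EAE libraries. The others were the T cell genes Trac, Il7r and Icos. Trac, the constant region of the T cell receptor alpha chain, had 2.45, 2.21 and 4.7 CPM at D10 against 11.9, 19.9 and 8.55 CPM at D5, at least 29.4-fold above control at D10 and at least 127-fold at D5.

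Among persisting genes that had counts in the controls, the largest rises included Mmp3, stromelysin, with 0.669, 52.8 and 135 CPM at D10, 54.2, 24.97 and 48.6 CPM at D5 and 0.735, 0 and 0 CPM in the sorted control. Saa3, an acute phase protein, had 7.25, 8.76 and 57.1 CPM at D10, 129, 55.05 and 69.2 CPM at D5 and 0, 1.96 and 0 CPM in the sorted control. Both varied widely at D10, with replicate 1 the lowest library and replicate 3 the highest. The largest persisting falls included Myoc, myocilin, a secreted glycoprotein, with 7.695, 44.5 and 5.99 CPM at D10, 7.99, 18.1 and 0.7897 CPM at D5 and 155, 153 and 190 CPM in the sorted control. Wnk2, a kinase of ion transport control, had 31.6, 77.1 and 21.3 CPM at D10, 12.6, 32.5 and 18.03 CPM at D5 and 232, 439 and 352 CPM in the sorted control. All 6 EAE values of both genes lay below the controls, and D10 replicate 2 was the highest EAE library in each. Cbs, cystathionine beta-synthase of sulfur amino acid metabolism, had 4.68, 4.62 and 3.52 CPM at D10, 0.596, 0.806 and 1.32 CPM at D5 and 12.5, 16.01 and 12.2 CPM in the sorted control. D10 values of Cbs were all above D5 and all below control, with 42.7% of the D5 log2 change left, and the difference between the days did not pass the test (edgeR adjusted p = 0.0642).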

How the data were processed

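RNA from cells sorted by fluorescence for GFP was sequenced in paired reads of 100 bases on a HiSeq4000, per the labels' protocols. The authors deposited raw counts per gene, 1 column per library, and the submitters' processing notes name the counter HTSeq 0.6.1, the aligners TopHat2 2.0.11 and Bowtie2 2.2.1, SAMtools 0.1.19, DESeq2 and the genome build mm9. The sources used here do not give the gene annotation or the strand setting, so reads of overlapping and antisense genes cannot be told apart. The table held 37991 genes and 1 line of totals (equal to the column sums, left out here), and 24 gene symbols that a spreadsheet had turned into dates were restored from their gene IDs. Where genes share a symbol, the plain symbol names the copy with the most counts, and the 3401 other copies carry their gene ID as well. The CPM copies of the counts in the same table were not used.

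The 9 sorted libraries entered 1 edgeR 4.0.16 quasi-likelihood fit (R 4.3.3) with TMM scaling, and filterByExpr kept 15972 genes. Contrasts were D10 against D5, D5 against control and D10 against control, each with Benjamini-Hochberg adjustment over all genes and a threshold of 0.05. P-values measure the spread between pools. CPM used TMM scaling, and gene list medians and plotted values added 0.5 CPM before the log. The members and the 43 gene lists, of whose 1035 symbols 1033 matched, were chosen with earlier results of these data known. Named genes were the 10 largest rises and falls among the called genes with at least 10 CPM and no overlap, up to 2 called members of each list, the 10 called genes with the highest CPM, the persisting genes with the largest D5 change and a fixed set. Other list members were chosen as examples after their values were seen. Some genes of the fixed set are not reported here. Alternatives were DESeq2 1.42.0 with its own size factors, those size factors in edgeR, limma 3.58.1 voom, no filter on low counts, the 6 EAE libraries only, the replicate block and each library left out. The code was tested on simulated counts, in which 100 genes were changed 2-fold and 100 others 4-fold at D10, picked without regard to level. The D10 against D5 test called 29% of the former and 69% of the latter, and 9 unchanged genes. Replicate numbers did not pair the D10 and D5 libraries, since the correlation of same-numbered deviations was -0.078, -0.057 and 0.059. No 2 libraries of the same group agreed within counting noise, and pairs across groups were not compared. Promoters and motifs came from RefSeq on GRCm38.p6.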

Additional observations from a re-analysis of the deposited data

Results flagged for a closer look

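For 21 genes the difference of EAE cells from the healthy sorted cells was not the same at D10 as at D5, by the test of the difference itself, which is the D10 against D5 contrast of the same edgeR fit. The difference from control at D10 minus that at D5 was, on the log2 scale, 2.91 for Col2a1, 2.53 for Vat1l, 1.99 for Ntm, 1.80 for Igf2, 1.71 for Lpl, 1.68 for Emid2, 1.65 for Edn3, 1.55 for Odz4, 1.4 for Apoe, 1.31 for Col4a5, 1.15 for Vtn and 0.98 for A430110N23Rik. It was -0.98 for Cd248, -1.12 for Des, -1.16 for Fn1, -1.37 for Ndufa4l2, -1.50 for Kcnj8, -1.51 for Itga1, -1.62 for Abcc9, -2.16 for Serpina3g and -2.94 for Car4 on the same scale. In each of these genes all 3 D10 libraries lay on 1 side of all 3 D5 libraries. Groups of 3 libraries are too small for a check of single outlying values.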

How the results depend on the processing

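The 21 genes called between D10 and D5 kept their direction under every alternative tried. Values without a call did change sign, among them the log2 difference of Col1a1 without D10 replicate 3 (-0.11) and of Col3a1 (at most 0.27, without D10 replicate 2), Dcn and Myh11 under some alternatives. Gene list medians of the other sign numbered 9 without D5 replicate 1, 7 without D10 replicate 1, 6 without D10 replicate 3 and at most 4 under each of the other alternatives, and the fibrillar collagen median lay between -0.34 (without D10 replicate 3) and 0.09 (without D10 replicate 2). The number called was 265 with no filter on low counts (171 higher, 94 lower), 182 with DESeq2 (107 higher, 75 lower), 33 with limma voom (18 lower) and 3 with the 6 EAE libraries only (2 higher, 1 lower), and all 21 were among the first 2 of these sets. Leaving out 1 library at a time gave 1 to 218 called genes, 1 to 137 higher and 0 to 81 lower. The fewest came without D5 replicate 3, when Lpl alone was called, and the most without D10 replicate 3. The count of genes whose days do not overlap was 2757 higher and 2890 lower without D10 replicate 3, where fewer libraries have to be separated. Leaving out 1 library gave 2446 to 3990 genes called at D5 against control and 1045 to 2031 at D10. Receded genes numbered 203 with no filter, 145 with DESeq2, 28 with limma voom and 1 to 200 with 1 library left out. Genes that grew numbered 10 with no filter and 4 with DESeq2. Late genes numbered 52 with no filter, 33 with DESeq2 and 0 to 18 with 1 library left out. Persisting genes ranged over 887 to 1800 and unresolved genes over 1044 to 2903 with 1 library left out. The cause of these shifts was not tested. The replicate block gave 23 called genes, 15 higher and 8 lower, of which 13 were among the 21, and 18 genes receded and 1 grew. The numbers do not pair these libraries, so a call lost under the replicate block is no measure of a smaller change. With 3 libraries a group, and 61 counts of Car4 over the D10 libraries, the counts limit what could be called among low genes. The limit was not confined to low genes. In the simulated counts 29% of 2-fold changes were called over genes of all levels, so a missing call does not show an unchanged gene.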
